A study of Saccharomyces cerevisiae with 6 samples.

Results

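The genes of trehalose synthesis and breakdown were followed in RNA sequencing of 3 strains of the yeast Saccharomyces cerevisiae. The 7 genes were chosen by name: TPS1, TPS2, TPS3 and TSL1 of synthesis, and NTH1, NTH2 and ATH1 of breakdown. Each had a single gene model among the 5625 gene models of the deposited table, and all 7 passed the filter on low values, a library mean of at least 1 FPKM, the reads on a gene scaled by its length and by the depth of the library.

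Per the labels, the genes of glycolysis sit together at one place in both engineered strains, chromosome V for IMX605 and chromosome IX for IMX606, whereas IMX372 has them at their native loci. Published work describes IMX372 and strains built from it as lacking the minor glycolytic paralogs, which the labels do not state. There were 2 cultures a strain, which for IMX605 and IMX606 were aerobic bioreactors with SMD medium described as biological duplicates, and for IMX372 are labelled aerobic with no medium of their own: libraries R12 and R7 for IMX605, R13 and R8 for IMX606, and DSE001 and DSE002 for IMX372. Every group is 1 constructed strain, so the place of the locus and any other difference between the strains cannot be told apart. The labels point to an earlier deposit for the IMX372 libraries, so in either comparison with IMX372 the strain and the library set cannot be told apart.

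Trehalose is a disaccharide of glucose that yeast stores and that protects proteins and membranes under stress. It is made from UDP-glucose and glucose 6-phosphate by a complex in which Tps1 makes trehalose 6-phosphate, Tps2 removes the phosphate, and Tps3 and Tsl1 are regulatory subunits. Trehalose 6-phosphate also restrains hexokinase, which ties the pathway to the entry of glucose into glycolysis. Neutral trehalases in the cytosol and the acid trehalase Ath1 split trehalose back to glucose, and synthesis genes are known targets of the stress transcription factors Msn2 and Msn4, which protein kinase A holds in check.

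Reads on genes numbered 18754741 to 21370278 in 5 libraries and 70510681 in IMX372 DSE001. URA3, a uracil synthesis gene used as a marker, stood at 9249 to 10901 FPKM in the cultures of IMX605 and IMX606, against 250.1 and 276 FPKM in those of IMX372. SGA1 on chromosome IX had 0 and 1 read in IMX605, and 40 and 56 reads in IMX606, against 229 and 39 reads in IMX372. CAN1 on chromosome V had 9.16 and 9.78 FPKM in IMX605, and 119 FPKM in both libraries of IMX606, against 93.1 and 107.6 FPKM in IMX372. SGA1 reads are uncertain, since FMC1 lies within 500 bases on the opposite strand at 10 times its level or more. The labels do not name the genes at which the loci were placed, so these values do not check the strain labels. FPKM is a share of the reads on genes, so fewer cells with a transcript, less of it per cell and a change in all other mRNA cannot be told apart.

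TPS1, TPS2, TSL1 and NTH1 were higher in both single-locus strains than in IMX372, and TPS3 passed the test in IMX605. Levels of NTH2 and ATH1 did not pass in either strain, and none of the 7 genes passed between IMX605 and IMX606. TSL1 had the largest difference of the 7 in both strains, 2.66 times the IMX372 mean FPKM in IMX605 and 2.15 times in IMX606. Of the 7 genes limma called 5 higher and 0 lower in IMX605, where 15.0% of all 5459 genes tested were called higher, 15.0% lower and 30.0% in either direction (adjusted p under 0.05). In IMX606 it called 4 higher and 0 lower, against 11.1% of genes tested called higher, 12.8% lower and 23.9% in either direction. The median log2 difference over the 7 genes was 0.58 in IMX605 and 0.46 in IMX606, and over all genes tested it was -0.03 in IMX605 and -0.06 in IMX606. Under median-of-ratios scaling the split over all genes in IMX606 turned from 604 higher and 700 lower to 740 higher and 558 lower, and of the 7 genes 5 in IMX605 and 4 in IMX606 were again called higher. The count in IMX605 was 3 without IMX605 R7 or without IMX372 DSE002, and the count in IMX606 was 2 without IMX372 DSE001, without IMX372 DSE002 or without the filter on low values. Both comparisons use the same IMX372 libraries.

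**Figure D1:**
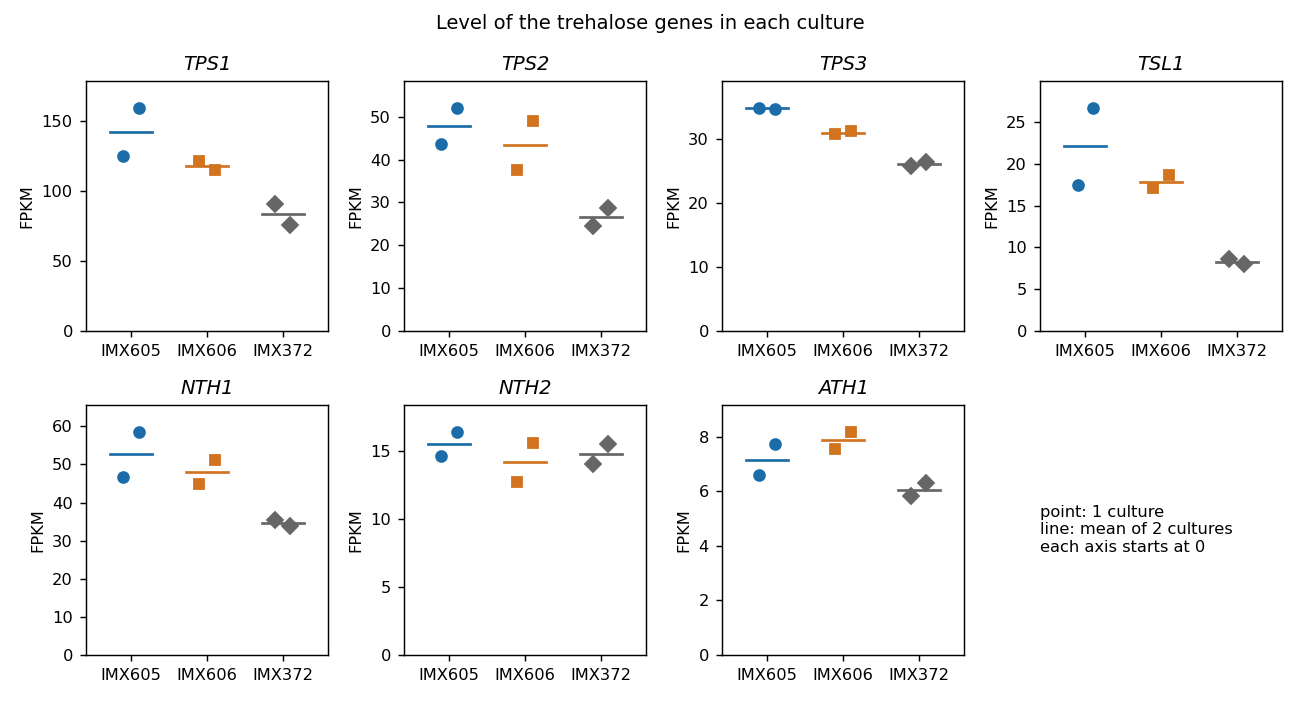
FPKM of each trehalose gene (vertical axes, each starting at 0) in the cultures of IMX605, IMX606 and IMX372. Points are single cultures and lines are the means of 2. The points of IMX605 and IMX606 lie above both IMX372 points for every gene but NTH2.

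TPS1 encodes the synthase that makes trehalose 6-phosphate (YBR126C, chromosome II, 476671 to 478158, minus strand, a coding length of 1488 bases). Positions are as deposited, on CEN.PK113-7D sequences, and no source used here gives the name of that build. TPS1 stood at 124.6 and 159.1 FPKM in IMX605 R12 and R7 and at 121.3 and 114.6 FPKM in IMX606 R13 and R8, against 90.8 and 75.6 FPKM in IMX372 DSE001 and DSE002. It was the most abundant of the 7 transcripts in every library, and the lowest single-locus culture lay above the highest IMX372 culture. Its mean was 141.8 ± 24.4 FPKM in IMX605 and 117.9 ± 4.74 FPKM in IMX606, against 83.2 ± 10.7 FPKM in IMX372 (SD, n = 2 each). The log2(FPKM + 1) scale understates changes of low genes, most at the lowest levels. On it TPS1 was higher by 0.76 in IMX605 (SE 0.14, limma adjusted p = 0.00183) and by 0.50 in IMX606 (SE 0.14, limma adjusted p = 0.0210). The IMX606 call ended without IMX372 DSE002, where the difference was 0.37 (limma adjusted p = 0.178), and without the filter on low values (limma adjusted p = 0.0682).

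TPS2 encodes trehalose-6-phosphate phosphatase, which completes the synthesis (YDR074W, chromosome IV, 580121 to 582811, plus strand, a coding length of 2691 bases). Its levels were 43.6 and 52.0 FPKM in IMX605 and 37.6 and 49.1 FPKM in IMX606, against 24.5 and 28.8 FPKM in IMX372. Both single-locus strains lay above IMX372 without overlap and overlapped each other, and the IMX606 cultures lay the furthest apart for this gene. TPS2 was higher by 0.82 in IMX605 (95% interval 0.49 to 1.15, limma adjusted p = 0.00203) and by 0.67 in IMX606 (95% interval 0.34 to 1.00, limma adjusted p = 0.00791). Without IMX372 DSE001 the IMX606 call ended, at a difference of 0.56 (limma adjusted p = 0.0775). TPS2 and TPS3 stood level in IMX372, at means of 26.7 ± 3.03 and 26.1 ± 0.378 FPKM, whereas in IMX605 TPS2 reached 47.8 ± 5.98 FPKM and TPS3 34.7 ± 0.105 FPKM (SD, n = 2 each).

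TSL1 and TPS3 encode the regulatory subunits that hold the complex together, and they are related genes. In the R64 reference their longest alignment covered 1729 bases at 68.8% identity, far from the 95% over 200 bases at which copies were counted as near-identical, and no member had such a copy. TSL1 (YML100W, chromosome XIII, 65180 to 68473, plus strand, a coding length of 3294 bases) stood at 17.5 and 26.7 FPKM in IMX605 and at 17.1 and 18.6 FPKM in IMX606, against 8.62 and 7.98 FPKM in IMX372. All 4 single-locus cultures lay above both IMX372 cultures, with IMX605 R7 the highest. The difference was 1.28 in IMX605 (SE 0.18, limma adjusted p = 0.000276) and 1.02 in IMX606 (SE 0.18, limma adjusted p = 0.00171). In IMX605 2.55% of all genes tested had a larger difference, and in IMX606 3.08%. Both TSL1 calls held in every alternative tried, between 0.99 and 1.57 in IMX605 and between 0.78 and 1.10 in IMX606.

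TPS3 (YMR261C, chromosome XIII, 767146 to 770310, minus strand, a coding length of 3165 bases) varied least between cultures of a strain. It stood at 34.8 and 34.7 FPKM in IMX605 and at 30.7 and 31.1 FPKM in IMX606, against 25.8 and 26.4 FPKM in IMX372. All 3 strains were separated from each other at this gene, in the order IMX605, IMX606, IMX372. TPS3 was higher by 0.40 in IMX605 (SE 0.11, limma adjusted p = 0.0178), and its difference of 0.24 in IMX606 did not pass (95% interval -0.00 to 0.48, limma adjusted p = 0.137). The IMX605 call ended whenever one of the 4 libraries compared was left out, with limma adjusted p = 0.106 without IMX605 R12, 0.115 without IMX605 R7, 0.0555 without IMX372 DSE001 and 0.0565 without IMX372 DSE002. The difference itself stayed between 0.39 and 0.41 in those fits.

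NTH1 encodes the main neutral trehalase, the cytosolic enzyme that protein kinase A activates by phosphorylation (YDR001C, chromosome IV, 449884 to 452139, minus strand, a coding length of 2256 bases). It stood at 46.7 and 58.7 FPKM in IMX605 and at 44.9 and 51.3 FPKM in IMX606, against 35.5 and 33.9 FPKM in IMX372. Its level was the highest among the trehalases in all 6 libraries, and all 4 single-locus cultures lay above both IMX372 cultures. NTH1 was higher by 0.58 in IMX605 (SE 0.13, limma adjusted p = 0.00710) and by 0.46 in IMX606 (SE 0.13, limma adjusted p = 0.0275). The IMX605 call ended without IMX605 R7 (0.42, limma adjusted p = 0.102) and without IMX372 DSE002 (0.55, limma adjusted p = 0.0651). The IMX606 call ended without IMX606 R8 (0.36, limma adjusted p = 0.103), IMX372 DSE001 (0.49, limma adjusted p = 0.0839) or IMX372 DSE002 (0.43, limma adjusted p = 0.147), and without the filter on low values (limma adjusted p = 0.0735).

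NTH2 encodes a second neutral trehalase (YBR001C, chromosome II, 234576 to 236918, minus strand, a coding length of 2343 bases), which aligned to NTH1 over 2149 bases at 72.5% identity in R64. It stood at 14.7 and 16.5 FPKM in IMX605 and at 12.8 and 15.6 FPKM in IMX606, against 14.1 and 15.6 FPKM in IMX372. The 3 strains overlapped, and NTH2 was the one member without separated groups in either comparison against IMX372. Its difference was 0.07 in IMX605 (95% interval -0.25 to 0.38, limma adjusted p = 0.752) and -0.06 in IMX606 (95% interval -0.38 to 0.25, limma adjusted p = 0.770). ATH1 encodes the acid trehalase, known to act on trehalose in the vacuole and outside the cell (YPR026W, chromosome XVI, 623541 to 627176, plus strand, a coding length of 3636 bases). It was the least abundant member, at 6.59 and 7.72 FPKM in IMX605 and 7.54 and 8.19 FPKM in IMX606, against 5.81 and 6.29 FPKM in IMX372. Its cultures were separated in both comparisons, but differences of 0.21 in IMX605 (95% interval -0.14 to 0.55, limma adjusted p = 0.339) and 0.33 in IMX606 (95% interval -0.01 to 0.67, limma adjusted p = 0.147) did not pass. The ATH1 intervals include the 0.40 by which TPS3 rose in IMX605, while the NTH2 intervals end below it.

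**Figure D2:**
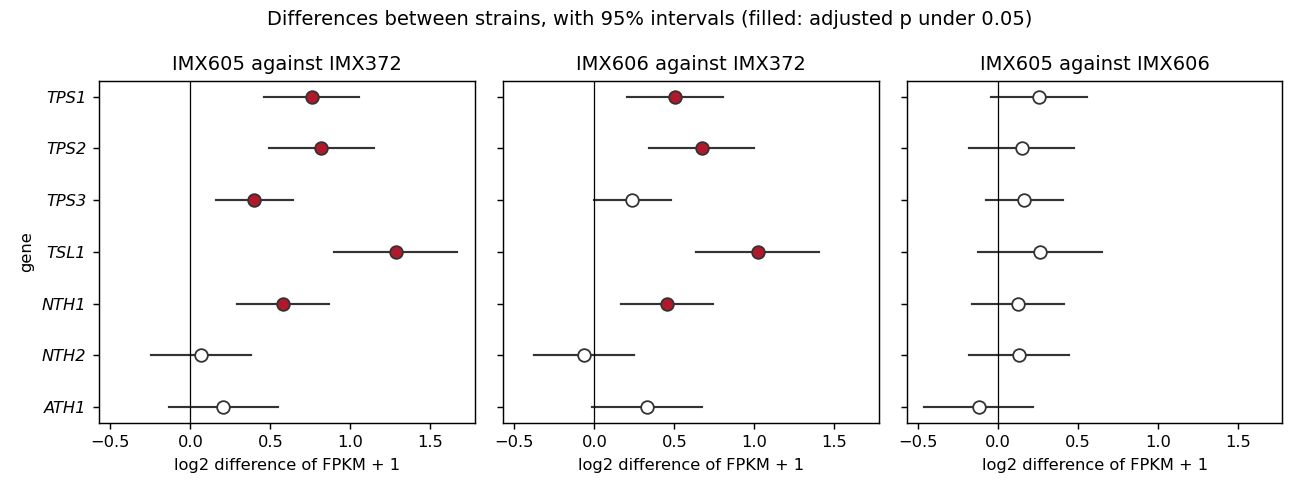
Differences between strains in log2(FPKM + 1) (horizontal axis) for the 7 genes, with 95% intervals of the limma fit as lines. Filled points passed at an adjusted p under 0.05, which were 5 genes in IMX605 against IMX372, 4 in IMX606 against IMX372 and 0 in IMX605 against IMX606.

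Counting separated groups, 6 of the 7 genes had both IMX605 cultures above both IMX372 cultures, as did 31.5% of all genes tested, and 69.2% of all genes tested were separated in either direction. For IMX606 the count was also 6 of 7 above IMX372, beside 25.7% of all genes tested above it and 62.4% separated in either direction. Each member was read from at least 437 reads in any library (ATH1 in IMX372 DSE002), so counting error alone was at most 4.78% of a value. The SD between IMX605 cultures, relative to the mean, was larger than that for every member but TPS3. The tests use the spread between cultures, pooled over the 3 strains.

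**Figure D3:**
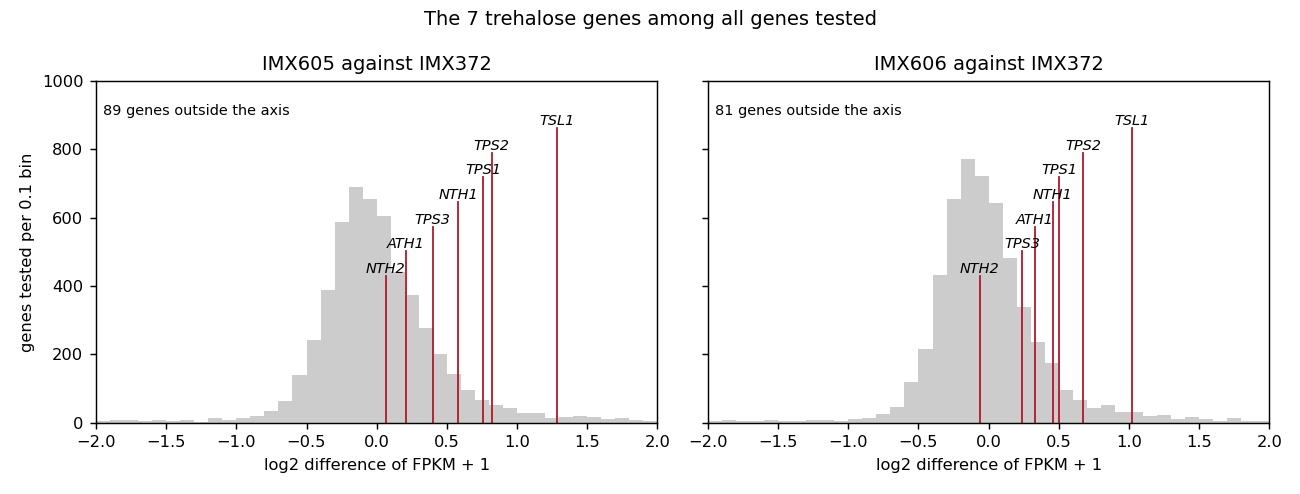
Distribution of log2(FPKM + 1) differences over all 5459 genes tested (grey bars, number of genes per 0.1 of log2 difference) with the trehalose genes as red lines, whose heights carry no value. TSL1 lies in the upper tail in both panels, while NTH2 lies at 0.07 in IMX605 and -0.06 in IMX606, and 89 and 81 genes lie outside the axis.

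Between IMX605 and IMX606, the comparison of the loci labelled chromosome V and chromosome IX, limma called 0 of the 7 genes higher and 0 lower, beside 0.202% of all genes tested (0.0733% higher and 0.128% lower). TPS1 and TPS3 had both IMX605 cultures above both IMX606 cultures, as had 15.7% of all genes tested, and 28.4% were separated in either direction. None of the 7 had an unadjusted p under 0.05 in limma, and voom on recovered reads also called 0. The largest differences were 0.26 for TSL1 (95% interval -0.12 to 0.65) and 0.25 for TPS1 (95% interval -0.04 to 0.55), each with limma adjusted p = 0.998. ATH1 was the one gene whose mean was lower in IMX605 than in IMX606, at 7.15 ± 0.800 FPKM against 7.86 ± 0.458 FPKM (SD, n = 2 each). Without IMX605 R7 these differences were -0.029 for TSL1 and 0.079 for TPS1, and without IMX605 R12 they were 0.55 for TSL1 and 0.43 for TPS1. The intervals reach 0.65 for TSL1 and 0.40 for TPS3, so differences up to those sizes between the single-locus strains are not excluded.

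Ratios within a culture do not depend on the scaling of the libraries and show the makeup of the pathway. TSL1 amounted to 0.140 and 0.168 of TPS1 in IMX605 and to 0.141 and 0.162 in IMX606, against 0.0949 and 0.105 in IMX372. TSL1 to TPS3 gave 0.502 and 0.769 in IMX605 and 0.558 and 0.598 in IMX606, against 0.334 and 0.303 in IMX372. In both ratios every single-locus culture lay above both IMX372 cultures. TPS2 to TPS1 overlapped between the strains, at 0.350 and 0.327 in IMX605 and 0.310 and 0.428 in IMX606, against 0.270 and 0.381 in IMX372. NTH1 to TPS1 also overlapped, at 0.375 and 0.369 in IMX605 and 0.370 and 0.447 in IMX606, against 0.391 and 0.449 in IMX372. TPS3 to TPS1 was lower in every single-locus culture (0.218 to 0.279) than in IMX372 (0.284 and 0.349).

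Among trehalases the makeup differed in the other direction for NTH2. The ratio of NTH2 to NTH1 was 0.315 and 0.281 in IMX605 and 0.284 and 0.305 in IMX606, against 0.397 and 0.459 in IMX372, again without overlap. The 4 synthesis genes summed to 246 ± 36.7 FPKM in IMX605 and 210.1 ± 4.67 FPKM in IMX606, against 144.3 ± 7.77 FPKM in IMX372. The 3 trehalase genes summed to 75.4 ± 10.5 FPKM in IMX605 and 70.1 ± 6.98 FPKM in IMX606, against 55.6 ± 0.296 FPKM in IMX372 (SD, n = 2 each). Synthesis over trehalase was 3.24 and 3.29 in IMX605 and 3.17 and 2.84 in IMX606, against 2.71 and 2.49 in IMX372. The lowest single-locus ratio, in IMX606 R8, lay near the IMX372 culture DSE001, and no test was made of sums or ratios over chosen genes. Ratios of other gene pairs are not given here, so a separated ratio has no background share beside it.

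**Figure D4:**
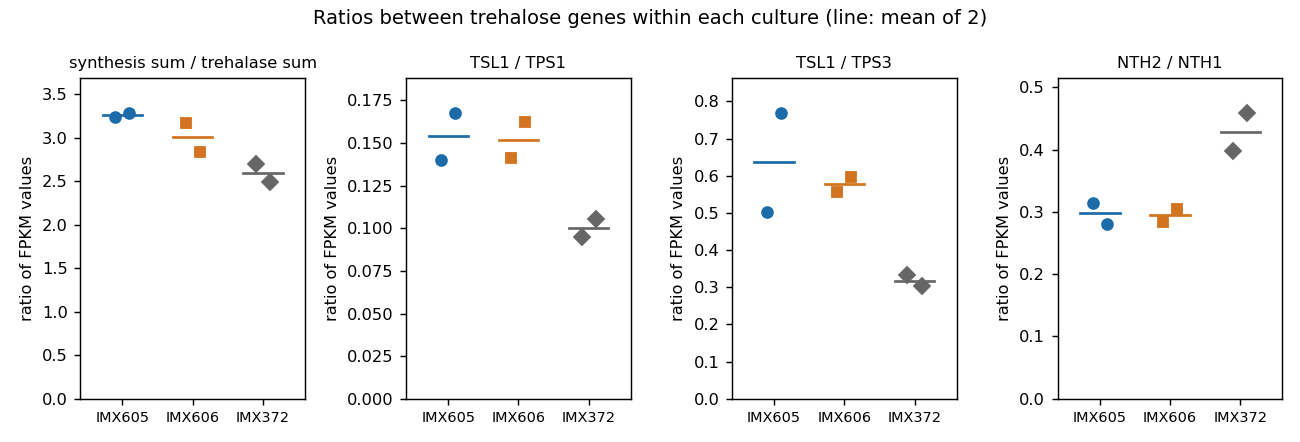
Ratios of FPKM values within each culture (vertical axes, starting at 0) for IMX605, IMX606 and IMX372, with points for cultures and lines for means of 2. TSL1 relative to TPS1 and to TPS3 is above the IMX372 points in all 4 single-locus cultures, and NTH2 relative to NTH1 is below them.

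Gene lists around the pathway, chosen with earlier results of these data known, were read in the same fits. Of 7 genes that supply glucose phosphates and UDP-glucose, 6 were tested and GLK1 stayed under the filter. In each single-locus strain 2 of the 6 were called higher and 0 lower, with a list median of 0.14 in IMX605 and 0.00 in IMX606. Over all genes 15.0% were called higher in IMX605 and 11.1% in IMX606, and 30.0% and 23.9% in either direction, so 2 of 6 is near the background in IMX605. PGM2, the major phosphoglucomutase that links glucose 6-phosphate to glucose 1-phosphate, stood at 29.7 and 38.9 FPKM in IMX605 and 28.8 and 27.5 FPKM in IMX606, against 10.6 and 10.3 FPKM in IMX372. It was higher by 1.61 (limma adjusted p = 8.04e-06) and 1.35 (limma adjusted p = 3.59e-05). The other call was HXK1, a hexokinase among the minor paralogs, at 4.40 and 4.75 FPKM in IMX605 and 6.14 and 3.18 FPKM in IMX606, against 0.292 and 0.359 FPKM in IMX372. HXK1 lies within 500 bases of RPN12, on the opposite strand at 10 times its level or more, so its reads are uncertain. In R64 HXK1 aligned to HXK2 over 1465 bases at 77.9% identity, and HXK2 stood at 652 to 967 FPKM in the cultures. Whether HXK2 reads were counted on HXK1 was not tested, nor whether IMX605 and IMX606 carry HXK1. UGP1, which makes the UDP-glucose that Tps1 uses, was among the genes that did not pass, with 0.09 in IMX605 (95% interval -0.15 to 0.33) and 0.07 in IMX606 (95% interval -0.17 to 0.30).

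For control of the trehalases 6 genes were tested. In IMX605 3 of the 6 were called higher and 0 lower (median 0.28), and in IMX606 2 higher and 0 lower (median 0.18), beside 15.0% of all genes called higher in IMX605 and 11.1% in IMX606. DCS1, a scavenger decapping enzyme that has also been described as an inhibitor of neutral trehalase, stood at 159.3 and 175.1 FPKM in IMX605 and 148.6 and 159.4 FPKM in IMX606, against 54.3 and 59.7 FPKM in IMX372. It rose by 1.54 (limma adjusted p = 1.54e-06) and 1.42 (limma adjusted p = 3.37e-06). Its paralog DCS2 stood at 20.5 and 32.1 FPKM in IMX605 and 19.0 and 19.9 FPKM in IMX606, against 7.88 and 8.01 FPKM in IMX372, and rose by 1.58 and 1.19. BMH2, a 14-3-3 protein of the kind that binds phosphorylated Nth1, rose by 0.47 in IMX605 (limma adjusted p = 0.00620), a call that ended without IMX372 DSE001 (limma adjusted p = 0.0507), and its difference of 0.30 in IMX606 did not pass (limma adjusted p = 0.0553), though it did in 4 of 15 alternatives, which were median-of-ratios scaling (limma adjusted p = 0.0302), quantile normalization (limma adjusted p = 0.0448), voom on recovered reads (adjusted p = 0.0345) and leaving out IMX606 R8 (limma adjusted p = 0.0482). The kinase genes read here, TPK3 and its regulatory subunit gene BCY1, did not pass in either strain.

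Of 16 genes of protein kinase A and nutrient signalling, all were tested, and 6 were called higher and 1 lower in IMX605 (median 0.23), against 3 higher and 0 lower in IMX606 (median 0.16). Over all genes 15.0% were called higher and 15.0% lower in IMX605, and 11.1% higher and 12.8% lower in IMX606, and the IMX606 count lies below the 23.9% called in either direction. SCH9, a nutrient-responsive kinase, rose by 0.70 in IMX605 and 0.69 in IMX606, and PDE1, a cAMP phosphodiesterase, by 0.54 and 0.47. IRA2, a Ras-inhibiting protein, rose by 0.81 and 0.81 at levels between 3.73 and 8.64 FPKM. IRA1, of the same kind, rose by 0.68 in IMX605, and the kinase gene RIM15 by 0.52. The other gene called higher in IMX605 was CYR1, by 0.42 (limma adjusted p = 0.0390). MSN4, one of the stress transcription factors, fell by 0.38 in IMX605 (limma adjusted p = 0.0218). MSN2, the other, differed by 0.19 in IMX605 and 0.21 in IMX606 and did not pass in either strain. PDE2, another cAMP phosphodiesterase, differed by -0.36 and -0.20 and did not pass either. Of the 7 IMX605 calls only that of SCH9 held with each library left out, and of the 3 IMX606 calls 0 did, with SCH9 at limma adjusted p = 0.0522 without IMX372 DSE002. In IMX605 the count was 2 higher and 0 lower without IMX605 R12 or without IMX372 DSE002, and 3 higher and 0 lower without IMX605 R7. In IMX606 it was 1 without IMX372 DSE001 and 0 without IMX372 DSE002, and 5 higher under median-of-ratios scaling.

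Of 15 genes that Msn2 and Msn4 are known to activate under stress, 12 were called higher and 0 lower in IMX605 (median 1.07). In IMX606 10 were called higher and 0 lower (median 0.84). Over all genes 15.0% were called higher in IMX605 and 11.1% in IMX606. The list was chosen with earlier results of these data known, so neither these counts nor the list's medians are an independent test. With each library left out 10 of the 12 calls held in IMX605 and 7 of the 10 in IMX606. SOD2 and GAD1 ended in IMX605 without IMX605 R7 (limma adjusted p = 0.310 and 0.0948) and without IMX372 DSE002 (limma adjusted p = 0.293 and 0.0803), and SOD2 also without IMX605 R12 (limma adjusted p = 0.0539). In IMX606 CTT1 (limma adjusted p = 0.0845) and TFS1 (limma adjusted p = 0.0794) ended without IMX372 DSE002, and HOR7 without IMX372 DSE001 (limma adjusted p = 0.0813). The SOD2 call in IMX605 held in 7 of 15 alternatives. It also ended with a pseudocount of 5, without the filter, with the filter at 5 FPKM, under quantile normalization and without the trend. The 6 genes with the smallest adjusted p were the same in both strains. HSP12, a small membrane heat shock protein, stood at 601 and 886 FPKM in IMX605 and 471 and 547 FPKM in IMX606, against 63.5 and 52.7 FPKM in IMX372. DDR2, a gene induced by many stresses, stood at 224 and 341 FPKM in IMX605 and 184 and 232 FPKM in IMX606, against 21.1 and 19.1 FPKM in IMX372. NQM1, a transaldolase, was higher by 2.44 and 2.28, YGP1, a secreted glycoprotein, by 2.08 and 1.91, SOL4, a 6-phosphogluconolactonase, by 1.76 and 1.34, and HSP26, a small chaperone, by 1.87 and 1.25. The median difference of this list exceeded that of the 7 trehalose genes in both strains, and TSL1 alone among the 7 lay above the list's median. HSP104, the disaggregase that clears aggregates alongside trehalose, did not pass, at 0.06 in IMX605 (95% interval -0.18 to 0.31) and 0.11 in IMX606 (95% interval -0.13 to 0.36).

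Glycogen is the other glucose store of yeast and draws on the same UDP-glucose. Of 12 glycogen genes, 3 were called higher and 2 lower in IMX605 (median 0.19), and 2 higher and 1 lower in IMX606 (median 0.06), beside 30.0% of all genes called in either direction in IMX605 and 23.9% in IMX606. The IMX606 count is near that background. GSY2, the major glycogen synthase, was higher by 1.35 and 1.26, and its reads are uncertain because HSP60 lies within 500 bases on the opposite strand at 10 times its level or more. GDB1, the debranching enzyme, was higher by 0.69 and 0.57. In IMX605 its call ended without IMX605 R7 (limma adjusted p = 0.0863) and IMX372 DSE002 (limma adjusted p = 0.0509), and in IMX606 without IMX372 DSE001 (limma adjusted p = 0.0618) and IMX372 DSE002 (limma adjusted p = 0.102). GPH1, glycogen phosphorylase, passed in IMX605 (0.80), where the call ended without IMX605 R7 (limma adjusted p = 0.262), IMX372 DSE001 (limma adjusted p = 0.0700), IMX372 DSE002 (limma adjusted p = 0.176) or the filter on low values (limma adjusted p = 0.0621). GAC1, a regulatory subunit of the phosphatase that activates glycogen synthase, fell to means of 1.52 FPKM in IMX605 and 1.39 FPKM in IMX606, against 10.6 FPKM in IMX372. The other gene called lower in IMX605 was SGA1, a glucoamylase of sporulation, at 0 and 0.0311 FPKM. That call ended without IMX372 DSE001, at a difference of -1.14. SGA1 reads are uncertain because FMC1 lies within 500 bases on the opposite strand at 10 times its level or more. The glycogen count in IMX605 was 1 higher and 2 lower without IMX605 R7 or without IMX372 DSE002, and 2 higher and 1 lower without IMX372 DSE001.

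**Figure D5:**
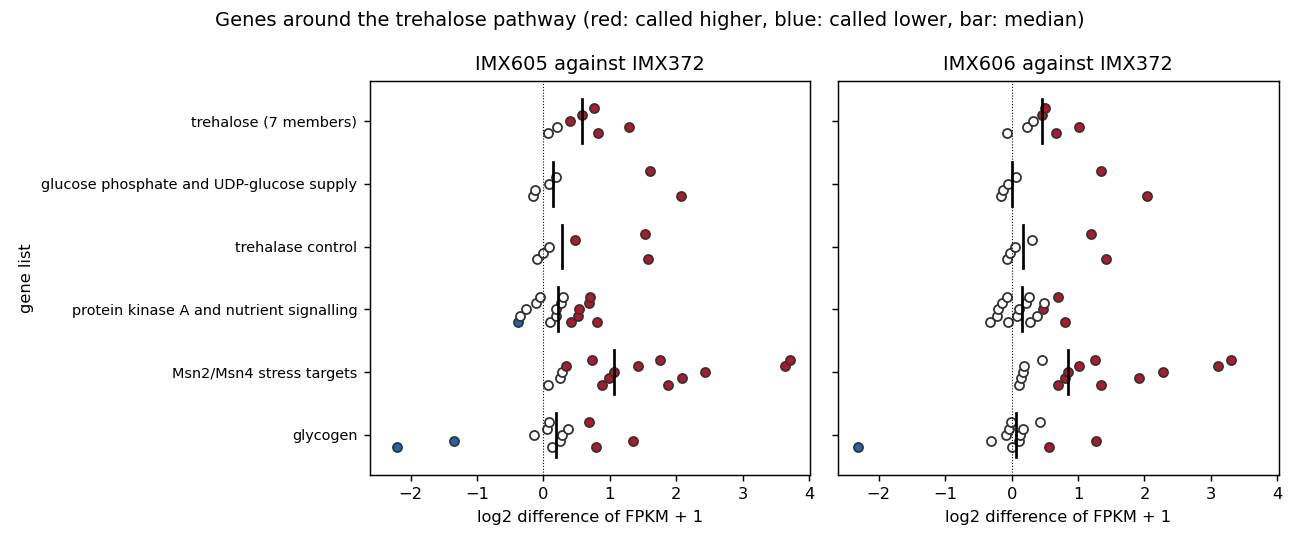
Differences in log2(FPKM + 1) (horizontal axis) of the 7 trehalose genes and of 5 surrounding gene lists (vertical axis, small vertical offsets only separate points), in IMX605 and in IMX606, each against IMX372. Red points were called higher, blue points lower and white points not called, and bars are medians, with the Msn2/Msn4 stress targets furthest to the right at 1.07 and 0.84.

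No gene model overlapped a member, and the nearest genes lay 356 to 1472 bases away. Of the 14 nearest gene models, 2 were called higher and 2 lower in IMX605, and 1 higher and 2 lower in IMX606, shares near the 30.0% and 23.9% called over all genes, so the counts are no result about these neighbours. The higher ones are transcribed away from a member across the shared upstream region. YBR126W-A, an uncharacterized gene 457 bases from TPS1, averaged 781 FPKM in IMX605 and 771 FPKM in IMX606, against 552 FPKM in IMX372, differences of 0.51 (limma adjusted p = 0.00906) and 0.49 (limma adjusted p = 0.0129). Both calls ended without IMX372 DSE002 (limma adjusted p = 0.0909 in IMX605 and 0.121 in IMX606), and the IMX605 call also without IMX605 R7 (limma adjusted p = 0.0677). CUE4, 536 bases from TSL1, was higher by 0.62 in IMX605 (limma adjusted p = 0.0178), and its 0.38 in IMX606 did not pass (limma adjusted p = 0.126), with 0.67 (limma adjusted p = 0.00245) without IMX606 R8 and 0.097 (limma adjusted p = 0.703) without IMX606 R13. Its IMX605 call ended without IMX605 R7 (limma adjusted p = 0.112), IMX372 DSE001 (limma adjusted p = 0.0551), IMX372 DSE002 (limma adjusted p = 0.169) or the filter on low values (limma adjusted p = 0.0776). The other divergent neighbours, upstream of TPS3, NTH1 and ATH1, were not called. Downstream of ATH1 on the opposite strand, YPR027C, an uncharacterized gene 1405 bases away, averaged 0.548 FPKM in IMX605 and 0.568 FPKM in IMX606, against 23.3 FPKM in IMX372, differences of -3.98 (limma adjusted p = 1.20e-07) and -3.95 (limma adjusted p = 1.75e-07). RMD1, 943 bases downstream of NTH1, differed by -0.35 in IMX605 (limma adjusted p = 0.0493) and by -0.45 in IMX606 (limma adjusted p = 0.0195), and both calls ended without IMX372 DSE002 (limma adjusted p = 0.241 and 0.127). In IMX605 the RMD1 call also ended in 7 other alternatives, with limma adjusted p of up to 0.248, and in IMX606 without IMX606 R13 (limma adjusted p = 0.0670).

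Profiles over the 6 libraries were compared by the root mean square difference of log2(FPKM + 1) values, each gene centred on its own mean, among genes that averaged 10 FPKM or more. For TPS1 the nearest of 4328 genes was QCR6, a subunit of the cytochrome bc1 complex (0.02). It was followed by GUT2, mitochondrial glycerol-3-phosphate dehydrogenase (0.04), and CBP4, an assembly factor of the bc1 complex (0.06). The median gene was at 0.38 for TPS1, 0.61 for TSL1 and 0.17 for NTH2, so distances compare poorly between members. The nearest genes were picked for small distances, so their lying below the median is no result. For TSL1 the nearest were STF2 (0.07), a small protein first described with the ATP synthase, ECM4, a glutathione transferase (0.08), and PAI3, an inhibitor of the vacuolar proteinase A (0.09). TPS2 was nearest to MTL1, CCC2 and PRM8 (0.07 each), TPS3 to FRA1, SCW10 and CWP1 (0.04 each), and NTH1 to MSC1 (0.04), GCY1 (0.05) and HXT3 (0.06), of which GCY1 has PFY1 as an abundant opposite-strand neighbour. NTH2 was nearest to NYV1 (0.02), FOX2 (0.04) and RTG3 (0.04), and ATH1 to MSB4 (0.04), HEM3 (0.05) and CIN5 (0.05). Among the members themselves TPS1 and NTH1 were closest, at 0.12, with 28 other genes nearer to TPS1 than NTH1 was. TSL1 and its relative TPS3 differed by 0.43, and NTH1 and its relative NTH2 by 0.26.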

How the data were processed

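Polyadenylated RNA of 6 cultures was extracted with hot phenol and sequenced from TruSeq stranded libraries, per the labels' protocols. Tools listed in the submitters' processing notes, without role or order, are STAR 2.5.4a, featureCounts, SAMtools, DESeq2 and edgeR. No source used here gives the strand setting of the counting. The authors deposited FPKM values, and per the file headers the gene models lie on CEN.PK113-7D sequences. FPKM times gene length came out as whole multiples of 1 step per library for 100% of values (tolerance 0.01), which gave the reads per gene. A floor of 3 reads on 1 kb is 0.0425 to 0.160 FPKM and, like counting error, covers counting only.

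Genes averaging 1 FPKM or more over the libraries (5459, with 166 below) were tested as log2(FPKM + 1) in limma 3.58.1 (R 4.3.3), where the model had a mean for each strain and a trend of spread with level, and p-values were adjusted by Benjamini-Hochberg over all genes tested and called under 0.05. The fit had 3 residual and 8.38 prior degrees of freedom. It was also run on simulated data drawn from its own model with planted changes. That checks the code and not whether the model holds for these cultures. Python 3.11.15 made tables and figures, and BLAST 2.17.0 searched the R64 reference for copies, with genes matched by systematic name. The R64 coordinates and sequences were not otherwise used, since the files use another build. The members, gene lists and tests were chosen with earlier results of these data known. Genes named were the 7 members, up to 6 called genes per list and comparison by adjusted p, the 3 nearest profiles and the nearest gene on each side. SOD2, GAD1, CTT1, TFS1 and HOR7 were named beyond this rule, because their calls ended with a library left out. UGP1, HXK2, TPK3, BCY1, CYR1, MSN2, PDE2 and HSP104 were named after their values were seen. The fits were repeated with pseudocounts of 0.1 and 5, without the filter, with the filter at 5 FPKM, with median-of-ratios factors (0.970 to 1.05), quantile normalization, only the 2 strains compared, no trend, voom on recovered reads, and each library left out. Of the list for trehalase control, only the 6 genes tested are reported here.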

Additional observations from a re-analysis of the deposited data

How the results depend on the processing

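No paired analysis was possible because the columns carry no replicate numbers of the labels. Promoter motifs and protein identity were not examined here. Each trehalose gene was refitted under 15 alternatives per comparison, and in IMX605 against IMX372 the calls of TPS1, TPS2 and TSL1 held in all 15, as did that of TSL1 in IMX606. With each library left out, the log2 difference in IMX605 against IMX372 ranged from 0.39 to 0.41 for TPS3, 0.42 to 0.74 for NTH1, -0.011 to 0.14 for NTH2, -0.010 to 0.19 for UGP1 and -0.028 to 0.16 for HSP104. In IMX606 against IMX372 it ranged from 0.37 to 0.63 for TPS1, 0.49 to 0.86 for TPS2, 0.36 to 0.55 for NTH1 and -0.20 to 0.071 for NTH2. Between IMX605 and IMX606 it ranged from -0.042 to 0.33 for TPS2, -0.029 to 0.55 for TSL1, -0.038 to 0.28 for NTH1 and -0.0052 to 0.27 for NTH2. So NTH2 changed sign in both comparisons against IMX372, and the others named between IMX605 and IMX606 changed sign there. Without the filter on low values the calls of TPS1 (0.50) and NTH1 (0.46) in IMX606 ended at unchanged differences, and the cause was not tested. Leaving a library out moved the genes called to between 802 and 1942 in IMX605 (1635), 597 and 1256 in IMX606 (1304), and 6 and 97 between IMX605 and IMX606 (11). The count of 97 came without IMX606 R13, and none of the 7 genes was called there either. That last count was 5 without the filter and 6 with only the 2 strains compared. Median-of-ratios factors put the trehalase sum of IMX372 at 54.5 FPKM. Fits with a library left out have fewer degrees of freedom. Precision is limited by the 2 cultures per strain.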
